A study of Mus musculus with 12 samples.

Results

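Gene expression was compared between whole kidneys of A-ZIP mice, which are known for a near absence of fat tissue, and kidneys of FVB control mice. The comparison holds 6 of the study's 12 arrays, taken by their labels: 3 arrays of A-ZIP kidney and 3 of FVB control kidney. Both groups were labelled with the strain FVB and an age of 3 weeks, and RNA of 3 mice was pooled for every array. Each group thus holds 3 pools. The labels used here do not give the sex or litter of the mice, and the spread between pools is smaller than that between single mice. The other 6 arrays held kidneys of Pparg null mice, which lack the nuclear receptor PPARγ, and of their controls, all 3 weeks old and on a mixed C57BL6/SV129 background. They serve below as a comparison and helped to estimate each gene's variance.

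The A-ZIP transgene encodes a dominant-negative protein that pairs with B-ZIP transcription factors of the C/EBP and Jun families and keeps them from binding DNA. In the original mouse line it is driven by the promoter of Fabp4, a fat-cell gene that is also active in macrophages, and fat tissue fails to form. Such mice are known for very low leptin, high insulin, high blood glucose and lipid stored in liver and muscle. The kidney responds to the same hormones and fuels: its proximal tubule burns fatty acids, makes glucose, and takes up organic ions and amino acids. Insulin silences FoxO target genes, and glucocorticoids and the circadian clock drive further sets of kidney genes.

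Values are log2 expression after the authors' RMA normalization, with 1 probe set per gene, and 19938 genes were compared. Differences are A-ZIP minus FVB control on the log2 scale with the SE from limma. The threshold was a limma adjusted p under 0.05 over all genes. Gene lists were written with earlier results of these data known, so their shares are a description and not a test. The median difference over all genes was 0.0028. Members of a list were read on the same pools and some genes are on several lists, so members above or below 0 are not independent counts. Array medians lay between 7.171 and 7.206 on the 6 arrays. Markers of kidney were present: 9 measured identity genes averaged 12.15 to 12.18 per A-ZIP array and 12.19 to 12.21 per FVB array, and 0 of them passed the threshold. No gene measured here checks the transgene, so the group names rest on the labels. Pparg, the gene missing in the other line, read 8.23, 8.17 and 8.16 on the A-ZIP arrays and 7.96, 7.94 and 7.996 on the FVB arrays, which gave 0.22 ± 0.06 (limma adjusted p = 0.0736).

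The A-ZIP kidney differed from the FVB kidney in 485 genes, or 2.43% of those compared. Of these 260 were higher (1.3%) and 225 lower (1.13%). The median size was 0.38 over these genes, and 81 of them reached 1.5-fold and 15 reached 2-fold. In all of the 485 genes the 3 A-ZIP arrays did not overlap the 3 FVB arrays, which held for 22.5% of all genes compared. The threshold used the same arrays, so lack of overlap adds no support to a called gene. The first principal component of the 6 arrays held 43.1% of the variance and separated the groups, with scores of -5.83, -11.2 and -14.35 for A-ZIP and 14.86, 10.09 and 6.42 for FVB. The number of genes past the threshold was 62 without FVB control 1, 100 without FVB control 2, 255 without FVB control 3, 122 without A-ZIP 2 and 244 without A-ZIP 3. A core of 51 genes, 35 higher and 16 lower, passed with each of the 6 arrays left out in turn and is called firm below. Many other genes given below lost the threshold in at least 1 of these fits.

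**Figure D1:**
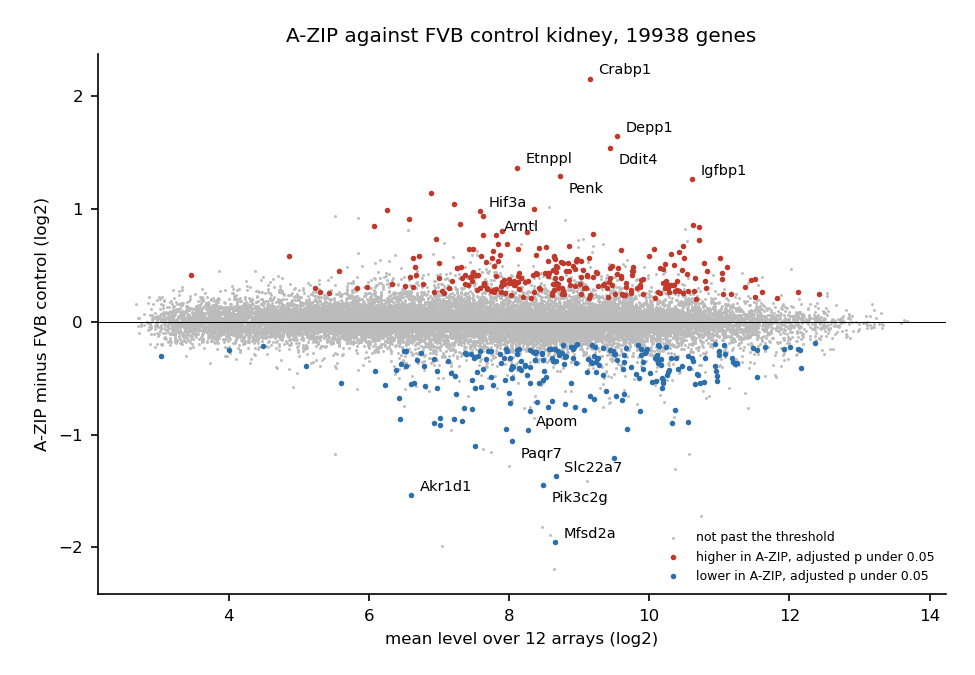
Each point is 1 of 19938 genes, with its mean log2 level over the 12 arrays on the x axis and the log2 difference A-ZIP minus FVB control on the y axis. The 260 genes higher in A-ZIP are red and the 225 lower are blue, and the points past 1 in either direction are few, led by Crabp1 at 2.15 and Mfsd2a at -1.95.

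The largest rise was in Crabp1, which encodes a cytosolic carrier of retinoic acid. It read 9.88, 10.27 and 11.07 on the A-ZIP arrays and 8.24, 8.13 and 8.39 on the FVB arrays, which gave 2.15 ± 0.29 or 4.45-fold (limma adjusted p = 0.00658). Every A-ZIP array lay more than 1 log2 unit above every FVB array. Aldh1a1, an enzyme that makes retinoic acid, rose by 0.65 ± 0.09, from 7.23, 7.25 and 7.39 to 7.74, 7.97 and 8.09 (limma adjusted p = 0.00719). Of 22 measured genes for retinoid binding and retinoic acid 4 rose and 0 fell, a share of 18.2% higher against 1.3% of all genes, with a list median of 0.02 against 0.0028 over all genes. The other members, picked once their values were known, were the related dehydrogenases Aldh1a2 (0.56 ± 0.12) and Aldh1a7 (0.56 ± 0.09). Aldh1a2 lost the threshold without A-ZIP 2 or 3 or any 1 FVB array (limma adjusted p as high as 0.131), and Aldh1a7 without A-ZIP 2 or FVB control 1 (limma adjusted p as high as 0.0679). The list had 2 rises without either of the latter arrays. The retinoic acid hydroxylase Cyp26b1 was at 0.30 ± 0.09 (limma adjusted p = 0.0997).

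Ddit4, an inhibitor of mTOR signalling induced by stress, glucocorticoids and fasting, was next among the genes that passed with each array left out. Its A-ZIP arrays read 10.47, 9.94 and 9.62 and its FVB arrays 8.15, 8.40 and 8.85, which gave 1.54 ± 0.21 or 2.91-fold (limma adjusted p = 0.00719). Etnppl, an enzyme that breaks down phosphoethanolamine, read 8.25, 8.08 and 8.51 against 6.82, 6.97 and 6.95, a rise of 1.36 ± 0.14 (limma adjusted p = 0.00226). Penk, the precursor of the enkephalin peptides, read 9.09, 9.36 and 9.31 against 7.81, 7.85 and 8.25, a rise of 1.29 ± 0.18 (limma adjusted p = 0.00789). In these 3 genes the lowest A-ZIP array stood above the highest FVB array, which the choice of genes required. Penk is also made in the adrenal medulla. Of 18 measured adrenal genes it alone rose (5.6% against 1.3% of all genes), with the list median at 0.10. The mean of that list was 6.49 to 6.58 on the A-ZIP arrays and 6.32 to 6.41 on the FVB arrays, and its part in the Penk value was not tested.

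Further firm rises are given gene by gene. Hif3a, a hypoxia-inducible factor subunit, read 7.75, 7.66 and 7.92 against 6.77, 6.78 and 6.85, a rise of 0.98 ± 0.08 (limma adjusted p = 0.00129). Tmem100, a membrane protein of vascular development, rose by 0.94 ± 0.09, and Edn1, the precursor of the vessel-constricting peptide endothelin-1, by 0.77 ± 0.08. Edn1 read 7.90, 8.18 and 8.004 on the A-ZIP arrays and 7.13, 7.26 and 7.37 on the FVB arrays (limma adjusted p = 0.00308). The thrombin receptor F2r rose by 0.67 ± 0.07, Fgl2, a prothrombin-cleaving enzyme, by 0.87 ± 0.10, and Entpd1, the ectoenzyme CD39 that removes extracellular ATP, by 0.50 ± 0.05. The lymphatic growth factor Vegfd rose by 0.52 ± 0.07. These 7 genes passed with each of the 6 arrays left out, and Entpd1 and Vegfd were picked once their values were known. The endothelial marker list itself had 0 of 28 measured genes past the threshold, against 2.43% of all genes. Its median was 0.02, with 17 members above 0. A change in the number of cells of a type and a change in RNA per cell cannot be told apart in whole-kidney RNA.

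The other genes among the 15 largest firm rises were Ndnf, a secreted neurotrophic factor (0.85 ± 0.11), Zbtb16, a zinc-finger factor induced by glucocorticoids (0.84 ± 0.12), Arntl, the clock gene for BMAL1 (0.77 ± 0.11), Trp53inp1, a p53-induced gene (0.72 ± 0.10), and Slc10a6, a carrier of sulphated steroids (0.65 ± 0.10). Genes with large rises that did not pass every fit are given apart. Serpina3n, an acute-phase protease inhibitor, read 7.88, 8.71 and 7.81 against 6.97, 7.10 and 6.91 (1.14 ± 0.22) and lost the threshold without A-ZIP 2 or any 1 FVB array (limma adjusted p as high as 0.0941). Wnk3, a kinase that regulates ion cotransporters, was at 1.05 ± 0.16 and lost it without FVB control 1 (limma adjusted p = 0.0553). The chloride channel accessory gene Clca3a1 was at 0.999 ± 0.17 and lost it without A-ZIP 2 or FVB control 1 or 2 (limma adjusted p as high as 0.073). The macrophage gene Ms4a4a was at 0.99 ± 0.15 and lost it without FVB control 1 (limma adjusted p = 0.0565).

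Among the falls that passed every fit, Pik3c2g, a class II phosphoinositide 3-kinase, was the largest. It read 8.49, 8.01 and 7.69 on the A-ZIP arrays and 9.59, 9.44 and 9.49 on the FVB arrays, so that it fell by 1.45 ± 0.20 on the log2 scale or 2.73-fold (limma adjusted p = 0.00789). Paqr7, a membrane progestin receptor, fell to 8.03, 7.78 and 8.13 from 9.19, 9.12 and 8.81 (-1.06 ± 0.13, limma adjusted p = 0.00429). Apom, the lipoprotein that carries sphingosine-1-phosphate on HDL, read 7.61, 7.22 and 7.07 against 8.36, 8.32 and 8.11 (-0.96 ± 0.13, limma adjusted p = 0.00655). The FVB arrays of these genes all lay above the highest A-ZIP array, which the choice of genes required. Fcamr, an Fc receptor for IgM and IgA, fell by 0.90 ± 0.12, and Osgin1, a growth inhibitor induced by oxidative stress, by 0.70 ± 0.08. Osgin1 had the tightest readings, 8.39, 8.42 and 8.43 in A-ZIP and 9.15, 9.13 and 9.05 in FVB.

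The other named firm falls were in Fmo4, a flavin monooxygenase (-0.68), Bbs10, a ciliary chaperonin-like protein (-0.58), Ccdc170 (-0.56), Pcdh17, a protocadherin (-0.54), Acot4, a peroxisomal thioesterase (-0.54), and Glyctk, glycerate kinase (-0.54). Pdp2, the phosphatase that switches pyruvate dehydrogenase on (-0.49), the vesicle protein Sytl4 (-0.45), the potassium channel Kcnj3 (-0.44) and the dynein light chain Dynll2 (-0.33) followed. The 16 firm falls also include a predicted gene, left out of those named, whose difference of -0.916 ranks between Apom and Fcamr. Each of the 10 genes in this group had 3 A-ZIP arrays below all 3 FVB arrays, which the choice of genes required. Their limma adjusted p ran from 0.00429 for Acot4 to 0.0104 for Dynll2.

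**Figure D2:**
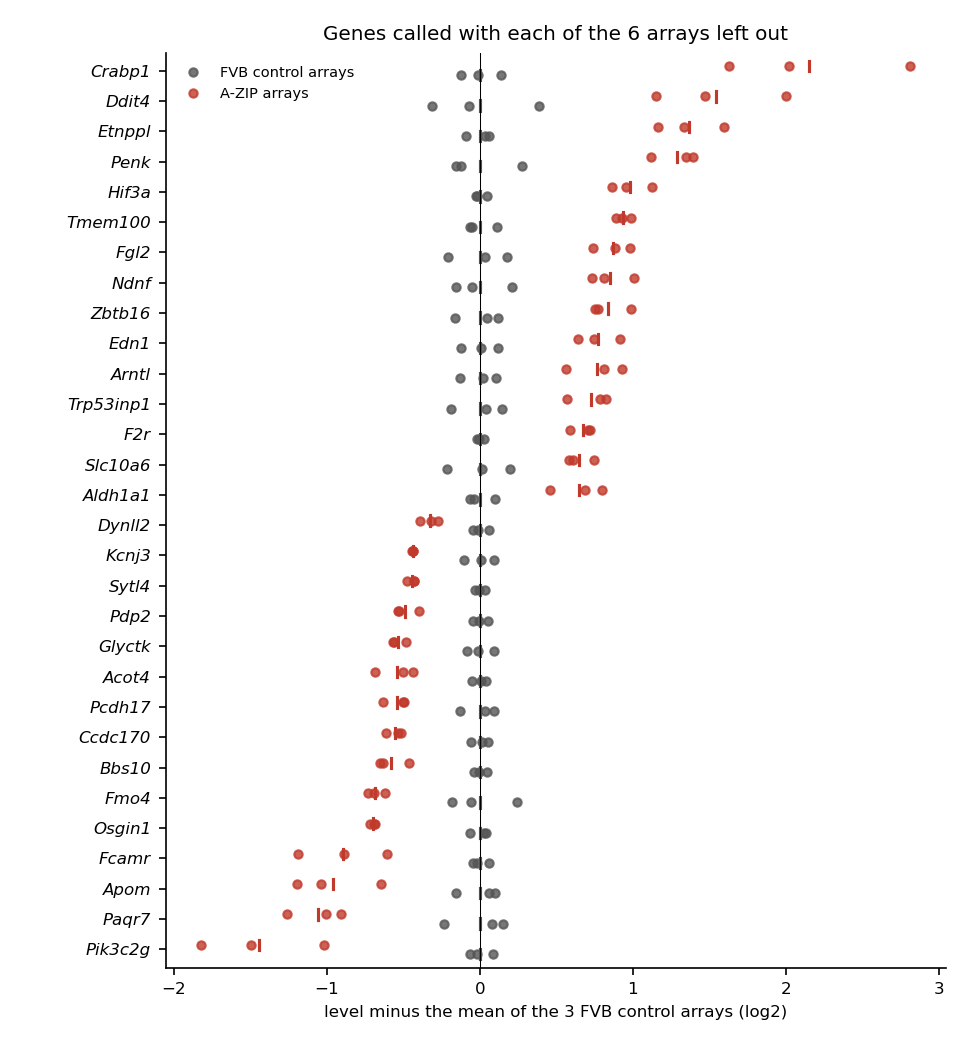
The level of each gene on each array is plotted as its log2 distance from the mean of the 3 FVB control arrays, for the 15 largest rises and 15 largest falls, predicted genes left out, that passed with each of the 6 arrays left out. Red points are A-ZIP arrays, grey points FVB control arrays and ticks the group means. Genes were also chosen for groups that do not overlap, so the red points lie clear of the grey ones by choice. The means run from Crabp1 (2.15) to Pik3c2g (-1.45).

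Some larger falls passed fewer of the fits. Mfsd2a, which imports lysophosphatidylcholine carrying omega-3 fatty acids, read 8.10, 7.91 and 7.10 in A-ZIP and 10.24, 9.80 and 8.92 in FVB (-1.95 ± 0.44, limma adjusted p = 0.0425). It lost the threshold without A-ZIP 2 or 3 or FVB control 1 or 2 (limma adjusted p as high as 0.172). Akr1d1, a steroid 5β-reductase, read 6.46, 6.22 and 6.52 against 8.74, 8.06 and 7.01 (-1.54 ± 0.32) and passed in only 1 of the 6 fits, that without FVB control 3 (limma adjusted p as high as 0.112 in the others). In both genes FVB control 3 was the lowest control. Cyp51, a cholesterol synthesis enzyme, was at -0.95 ± 0.21 and likewise passed only without FVB control 3 (limma adjusted p as high as 0.164). Uroc1, which breaks down histidine's product urocanate, was at -0.96 ± 0.21 and lost it without A-ZIP 2 or 3 or FVB control 1 or 2 (limma adjusted p as high as 0.155). Ifitm7 was at -1.10 ± 0.25 and passed only without A-ZIP 1 (limma adjusted p as high as 0.135 in the others). Akr1d1 and Uroc1 are also strongly expressed in liver. Of 12 hepatocyte markers, listed after values were seen, 0 passed, against 2.43% of all genes. Their mean level was 6.23 to 6.38 on the A-ZIP arrays and 6.23 to 6.29 on the FVB arrays.

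The next list holds genes that insulin represses and FoxO factors induce. Of 32 measured members 8 rose, 0 fell and 24 did not pass, a share of 25% higher against 1.3% of all genes, and 25 of 32 were above 0 with a median of 0.14. Depp1, a FoxO target induced by fasting, read 10.43, 10.90 and 10.40 in A-ZIP and 8.23, 9.15 and 9.41 in FVB (1.64 ± 0.28, 3.12-fold, limma adjusted p = 0.015). It lost the threshold without A-ZIP 2 (limma adjusted p = 0.0588). Igfbp1, a secreted binding protein of IGFs that insulin switches off, read 11.49, 11.87 and 10.42 against 9.74, 10.10 and 10.16 (1.26 ± 0.29, limma adjusted p = 0.0444). A-ZIP 3 lay only a little above the highest control, and Igfbp1 passed in 1 of the 6 fits, that without A-ZIP 3 (limma adjusted p as high as 0.179 in the others). Sesn1, a stress-induced inhibitor of mTOR signalling, rose by 0.63 ± 0.07 and passed every fit, as did Ddit4.

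The other FoxO-list members that rose, picked once their values were known, were Arrdc3, an arrestin-like regulator of receptors (0.49 ± 0.07), Klf15, a factor of amino acid and fasting metabolism (0.48 ± 0.08), Foxo3 itself (0.27 ± 0.06) and the coactivator Ppargc1a (0.26 ± 0.05). Arrdc3 lost the threshold without FVB control 1 (limma adjusted p = 0.0501), and Klf15 without A-ZIP 2 or FVB control 1 or 2 (limma adjusted p as high as 0.073). Ppargc1a lost it without A-ZIP 3 or FVB control 1 or 2 (limma adjusted p as high as 0.0959) and Foxo3 with any 1 of the 6 arrays left out (limma adjusted p as high as 0.16). The count of rises was 3 without FVB control 1, 4 without A-ZIP 2 or FVB control 2, and 6 in each of the other 3 fits. The gluconeogenic targets did not pass: Pck1 was at 0.05 ± 0.05 (limma adjusted p = 0.683) and G6pc at 0.16 ± 0.07 (limma adjusted p = 0.266). The insulin receptor substrate Irs2 was at 0.35 ± 0.13 with overlapping groups (limma adjusted p = 0.184). The kinase Pdk4, a FoxO and PPARα target that holds back pyruvate oxidation, was at -0.62 ± 0.23 (limma adjusted p = 0.196).

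Promoter sequence is shown for the genes of the FoxO and clock lists past the threshold whose 250 bases before the gene start hold a motif tied to their list, searched on both strands. It comes from the RefSeq annotation of GRCm38.p6, the C57BL/6J reference and not the FVB genome. In the Igfbp1 window (chr11:7197537-7197786, plus strand, ending at the gene start) the capitals mark the insulin response element core CAAAACA, 108 to 102 bases before the start:
Igfbp1: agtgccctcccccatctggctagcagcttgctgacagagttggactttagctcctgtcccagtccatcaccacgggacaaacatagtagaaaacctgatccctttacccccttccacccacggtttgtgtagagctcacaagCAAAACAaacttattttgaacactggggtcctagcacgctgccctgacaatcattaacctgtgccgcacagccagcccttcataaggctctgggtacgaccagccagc
Of the 19938 genes compared 15614 had at least 1 window in the table, as had 202 of the 260 that rose and 174 of the 225 that fell. On either strand CAAAACA stood in a window of 5.27% of these 15614 genes, 7.92% of the 202 and 5.75% of the 174. The FoxO site GTAAACA did so for 3.18%, 1.49% and 3.45% of the same genes. These matches are a description of letters in this window.

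Glucocorticoids, the adrenal steroids of stress and fasting, induce the genes of a further list. Of 25 measured members 8 rose, 1 fell and 16 did not pass, a share of 32% higher and 4% lower against 1.3% and 1.13% of all genes, and the list median was 0.29. Zbtb16 read 10.93, 11.15 and 10.91 in A-ZIP and 10.28, 10.20 and 9.997 in FVB (0.84 ± 0.12, limma adjusted p = 0.00947) and passed every fit. Tsc22d3, which encodes the anti-inflammatory protein GILZ, read 10.67, 10.55 and 10.47 against 9.77, 9.92 and 10.19 (0.60 ± 0.10). Fkbp5, a cochaperone of the steroid receptors, read 10.94, 10.82 and 10.81 against 10.22, 10.30 and 10.36 (0.56 ± 0.10). Both had A-ZIP arrays clear of the FVB arrays, as had all 485 genes past the threshold. Both lost the threshold without FVB control 1 or 2 (limma adjusted p as high as 0.0552 for Tsc22d3 and 0.073 for Fkbp5). Ddit4 and Klf15 belong to this list and to the FoxO list.

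The remaining rises were Per1 (0.58 ± 0.10), Cebpd, a C/EBP family member (0.52 ± 0.11), and Nfkbia, the inhibitor of NF-κB, picked once its values were known (0.47 ± 0.10). Per1 lost the threshold without A-ZIP 2 or FVB control 1 (limma adjusted p as high as 0.073), and Cebpd and Nfkbia passed only without FVB control 3 (limma adjusted p as high as 0.144 and 0.1). The member that fell was Nr3c1, the glucocorticoid receptor, also picked once its values were known, by 0.21 ± 0.04, with A-ZIP arrays at 9.79, 9.81 and 9.77 and FVB arrays at 9.99, 10.0023 and 10.002. It passed only without A-ZIP 1 (limma adjusted p as high as 0.0931 in the other fits). The list had 2 rises without FVB control 1, 3 without FVB control 2 and 4 without A-ZIP 2, and its median stayed between 0.21 and 0.39 in the 6 fits. The enzymes that renew or inactivate the hormone in the kidney, Hsd11b1 (-0.01 ± 0.08, limma adjusted p = 0.962) and Hsd11b2 (0.02 ± 0.13, limma adjusted p = 0.975), and the kinase Sgk1 (0.25 ± 0.15, limma adjusted p = 0.465) did not pass, and these 3 were picked once their values were known.

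The clock lists were read next, since feeding and hormones shift the kidney clock. BMAL1, the product of Arntl, drives the Per, Cry and Nr1d genes, whose products in turn hold it back. Arntl read 8.51, 8.15 and 8.39 in A-ZIP and 7.69, 7.45 and 7.61 in FVB, a rise of 0.77 ± 0.11 or 1.70-fold (limma adjusted p = 0.00923). The repressor Nfil3, picked once its values were known, rose by 0.68 ± 0.11 and lost the threshold without FVB control 2 (limma adjusted p = 0.0551). These were 2 of the 5 measured genes that peak with Arntl, or 40% against 1.3% of all genes. The list median was 0.41. Cry1, also picked once its values were known, was at 0.41 ± 0.14 (limma adjusted p = 0.169) and Clock at 0.01 ± 0.05 (limma adjusted p = 0.934).

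Of 15 genes that peak opposite to Arntl 1 rose (6.7% against 1.3% of all genes) and 0 fell. Of the 15 genes 10 were below 0, with a median of -0.17. Dbp, an output factor of the clock, read 8.81, 9.40 and 8.74 in A-ZIP and 9.58, 9.93 and 9.70 in FVB (-0.75 ± 0.19, limma adjusted p = 0.0594). Nr1d1, the repressor REV-ERBα, read 9.94, 10.77 and 9.90 against 10.61, 10.84 and 10.52 (-0.45 ± 0.22, limma adjusted p = 0.349). In both genes A-ZIP 2 was the highest of the A-ZIP arrays, and without it Dbp passed. Per1 was the member that rose, with 10.10, 10.03 and 10.02 against 9.26, 9.63 and 9.53. The time of day at which each pool was collected is not given in the labels used here, and its part in the clock genes was not tested.

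The first Per1 start has both kinds of clock element in its window (chr11:69098699-69098948, plus strand). The capitals mark the E-box CACGTG, 166 to 161 bases before the start, to which BMAL1 and CLOCK can bind, and the D-box TTATGCAA, 24 to 17 bases before it, to which Dbp, Tef and Nfil3 proteins can bind:
Per1: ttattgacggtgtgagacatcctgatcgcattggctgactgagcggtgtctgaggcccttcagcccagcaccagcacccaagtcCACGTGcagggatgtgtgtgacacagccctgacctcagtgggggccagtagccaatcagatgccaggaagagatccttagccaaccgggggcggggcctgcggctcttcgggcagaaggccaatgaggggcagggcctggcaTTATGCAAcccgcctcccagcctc
The E-box stood in a window of 8.11% of the 15614 genes with one, 9.41% of the 202 that rose and 13.2% of the 174 that fell. The D-box, searched as TTATGNAA, did so for 3.34%, 2.48% and 3.45% of these genes. Of the genes of both clock lists past the threshold Per1 alone held a clock motif in this window, which says nothing of sites elsewhere.

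**Figure D3:**
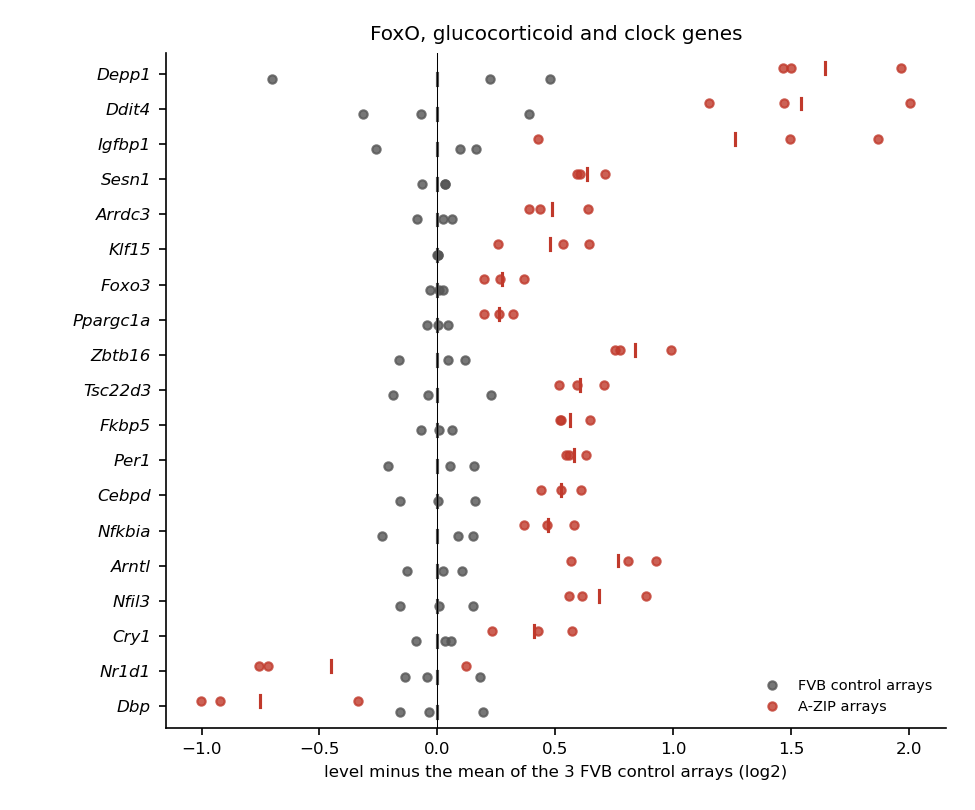
Levels of FoxO-list, glucocorticoid-list and clock genes on each array are plotted as log2 distance from the mean of the 3 FVB control arrays, with A-ZIP arrays in red, FVB control arrays in grey and group means as ticks. The red points lie above the grey ones for Depp1 down to Cry1, while Nr1d1 overlaps and Dbp lies below without passing the threshold (limma adjusted p = 0.0594).

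A list of C/EBP, Jun and related B-ZIP factors was read, since the transgene protein pairs with their proteins. It keeps them from binding DNA, which the RNA levels of these factors do not measure. Of 19 measured genes 3 rose and 1 fell, or 15.8% and 5.3% against 1.3% and 1.13% of all genes, with a median of 0.06. Fosl2, a partner of Jun proteins, rose by 0.56 ± 0.09, Cebpd by 0.52 ± 0.11 and Cebpb by 0.41 ± 0.09, while Cebpa fell by 0.72 ± 0.13. Cebpa, which drives metabolic genes of liver and fat, read 7.74, 7.71 and 7.83 in A-ZIP and 8.67, 8.57 and 8.19 in FVB. Fosl2, picked once its values were known, lost the threshold without FVB control 1 (limma adjusted p = 0.0565), and Cebpa without A-ZIP 2 or FVB control 1 or 2 (limma adjusted p as high as 0.0904). Cebpb lost it with any 1 of the 6 arrays left out (limma adjusted p as high as 0.181). Without FVB control 1 the list had 0 rises and 0 falls.

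Fatty acid use showed few calls and a low median. PPARα drives fatty acid oxidation in the proximal tubule. Of 32 measured targets 0 rose and 1 fell (3.1% against 1.13% of all genes), with 27 below 0 and a median of -0.17. Without A-ZIP 1 the list had 4 falls and a median of -0.219, and without A-ZIP 2 it had 1 fall and a median of -0.097. With all arrays the fall was in Acot4, which read 10.09, 9.91 and 10.16 in A-ZIP and 10.61, 10.64 and 10.55 in FVB (limma adjusted p = 0.00429). The related thioesterase Acot3 was at -0.59 ± 0.16 (limma adjusted p = 0.0779), the droplet protein Plin2 at -0.36 ± 0.11 (limma adjusted p = 0.133) and Ppara itself at -0.27 ± 0.08 (limma adjusted p = 0.0932). The ω-hydroxylase Cyp4a14, picked once its values were known, was at -0.05 ± 0.09 with overlapping groups (limma adjusted p = 0.835). Of 24 mitochondrial fatty acid oxidation genes 0 passed, the median was -0.05, and the entry enzyme Cpt1a was at -0.11 ± 0.06 (limma adjusted p = 0.36). Oxidative phosphorylation had 0 of 37 genes past the threshold and a median of -0.0021. Over all genes 2.43% passed in either direction, so 0 calls in these 24 and 37 genes says little.

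The list written for peroxisomal β-oxidation, which shortens very long and branched fatty acids, had 5 of 21 genes lower and 0 higher. The share was 23.8% lower against 1.13% of all genes, with 17 below 0 and a median of -0.18. The 5 genes were picked once their values were known. They were the thioesterase Acot12 (-0.53 ± 0.11), the trans-enoyl reductase Pecr (-0.37 ± 0.08), the racemase Amacr (-0.35 ± 0.07), the carnitine octanoyltransferase Crot (-0.35 ± 0.08) and the lyase Hacl1 (-0.26 ± 0.06). Acot12, a cytosolic enzyme, and Pecr, a reductase of chain elongation, are not steps of β-oxidation, and the share counts them. Acot12 read 10.67, 10.25 and 10.60 in A-ZIP and 11.08, 11.07 and 10.98 in FVB (limma adjusted p = 0.0305). Pecr read 11.24, 11.17 and 11.07 against 11.64, 11.54 and 11.40 (limma adjusted p = 0.0312). The groups did not overlap in any of the 5, which holds for all 485 genes past the threshold and 22.5% of all genes. Of the 5 genes 0 passed without A-ZIP 2, A-ZIP 3, FVB control 1 or FVB control 2, and 2 passed without FVB control 3. Eci3, an enoyl-CoA isomerase of peroxisomes outside this list, was at -0.90 ± 0.16 and lost the threshold without A-ZIP 2 or FVB control 1 or 2 (limma adjusted p as high as 0.0715).

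Lipid synthesis and storage genes moved singly. Scd2, a stearoyl-CoA desaturase, read 10.26, 10.44 and 10.37 in A-ZIP and 9.88, 9.79 and 9.86 in FVB (0.51 ± 0.06, limma adjusted p = 0.00461) and passed every fit. The main desaturase of liver and fat, Scd1, read 10.29, 10.47 and 9.22 against 11.47, 11.56 and 10.87 (-1.31 ± 0.34, limma adjusted p = 0.0723), below the controls on each array but not past the threshold. Lpin1, which makes diacylglycerol and was picked once its values were known, rose by 0.86 ± 0.15 and lost the threshold without A-ZIP 2 or any 1 FVB array (limma adjusted p as high as 0.0609). Fatty acid synthase, Fasn, was at -0.25 ± 0.08 (limma adjusted p = 0.154). The list of 29 synthesis genes had 2 rises (6.9% against 1.3% of all genes), 0 falls and a median of -0.03. Of 20 cholesterol synthesis and uptake genes 1 rose, the squalene synthase Fdft1 (0.33 ± 0.08, picked once its values were known, limma adjusted p = 0.0494 and up to 0.169 without single arrays), and Cyp51 fell. Rises and falls were 5% each of this list, against 1.3% and 1.13% of all genes. Without A-ZIP 1 the list had 6 rises, 0 falls and a median of 0.20, and in the other 5 fits it had 0 rises.

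Of 18 lipid droplet proteins and lipases 2 fell, or 11.1% against 1.13% of all genes. They were Cideb, which fuses lipid droplets (-0.24 ± 0.05), and G0s2, an inhibitor of adipose triglyceride lipase (-0.27 ± 0.06), both picked once their values were known. Cideb lost the threshold with any 1 of the 6 arrays left out (limma adjusted p as high as 0.13) and G0s2 passed only without A-ZIP 3 (limma adjusted p as high as 0.133). Mttp, which loads lipid onto apolipoprotein B, fell by 0.64 ± 0.10 and lost the threshold without FVB control 2 (limma adjusted p = 0.0531). It was picked once its values were known. Lipid uptake genes had 0 of 20 past the threshold, against 2.43% of all genes. Lipoprotein lipase, Lpl, was at -0.16 ± 0.07 (limma adjusted p = 0.291) and the fatty acid receptor Cd36, on the list of PPARγ targets, at -0.10 ± 0.17 (limma adjusted p = 0.835).

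Of 32 measured proximal tubule markers 2 fell, a share of 6.2% against 1.13% of all genes, and 30 did not pass. All 32 were below 0, with a median of -0.17. After a further quantile normalization 30 of the 32 were below 0. The mean of the list was 11.52 to 11.75 on the A-ZIP arrays and 11.87 to 11.94 on the FVB arrays, without overlap. Fewer cells of this type and less RNA per cell cannot be told apart in whole-kidney RNA. The organic anion carrier Slc22a7 read 9.08, 8.94 and 7.82 in A-ZIP and 10.08, 9.90 and 9.97 in FVB (-1.37 ± 0.29, limma adjusted p = 0.0324). It lost the threshold without A-ZIP 2 or any 1 FVB array (limma adjusted p as high as 0.13). Dnase1, a secreted nuclease picked once its values were known, fell by 0.89 ± 0.16 and lost it without A-ZIP 2 or 3 or FVB control 1 or 2 (limma adjusted p as high as 0.077). The list had 0 falls without A-ZIP 2, FVB control 1 or FVB control 2 and 5 without A-ZIP 1. Defining markers of the segment did not pass: the phosphate carrier Slc34a1 at -0.05 ± 0.05 with overlapping groups (limma adjusted p = 0.675) and the endocytic receptors Lrp2 at -0.14 ± 0.05 (limma adjusted p = 0.138) and Cubn at -0.12 ± 0.05 (limma adjusted p = 0.243).

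Organic ion carriers of the SLC22 and SLCO families and their ABC partners had 4 of 30 genes lower and 0 higher, a share of 13.3% lower against 1.13% of all genes, with 28 below 0 and a median of -0.18. Beside Slc22a7 they were the drug pump Abcb1a (-0.58 ± 0.10), the ergothioneine carrier Slc22a4 (-0.42 ± 0.08) and Slc22a23 (-0.42 ± 0.08), picked once their values were known. Abcb1a lost the threshold without A-ZIP 2 or 3 or FVB control 1 or 2 (limma adjusted p as high as 0.073), Slc22a4 without A-ZIP 2 or FVB control 1 or 2 (limma adjusted p as high as 0.0953), and Slc22a23 passed only without A-ZIP 1 (limma adjusted p as high as 0.106 in the others). The list had 0 falls without A-ZIP 2, FVB control 1 or FVB control 2 and 5 without A-ZIP 1. The classic drug and urate carriers did not pass: Slc22a6 was at -0.16 ± 0.17 (limma adjusted p = 0.718), Slc22a8 at -0.20 ± 0.09 (limma adjusted p = 0.28) and Slc22a12 at -0.42 ± 0.14 (limma adjusted p = 0.16).

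Enzymes that break down amino acids and one-carbon units had few calls, in both directions, and most lay below 0. Of 50 measured genes 2 rose and 3 fell, or 4% and 6% against 1.3% and 1.13% of all genes. Of the 50 genes 42 were below 0, and the median was -0.12. The falls, picked once their values were known, were in Bhmt, which remethylates homocysteine (-0.78 ± 0.14), Cbs, which commits it to cysteine (-0.69 ± 0.12), and the tryptophan enzyme Kynu (-0.32 ± 0.08). Cbs read 9.36, 8.999 and 8.90 in A-ZIP and 10.0025, 9.72 and 9.61 in FVB and lost the threshold without A-ZIP 2 or FVB control 1 (limma adjusted p as high as 0.0596). Bhmt lost it without A-ZIP 2 or 3 or FVB control 1 or 2 (limma adjusted p as high as 0.0904), and Kynu with any 1 of the 6 arrays left out (limma adjusted p as high as 0.164). The rises were in Etnppl and in the aspartate transaminase Got1, picked once its values were known (0.26 ± 0.05), which passed only without FVB control 3 (limma adjusted p as high as 0.13). With the arrays shifted to equal medians, or after a further quantile normalization, 6 of the 50 fell.

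Of 17 glucose transporters 1 rose and 1 fell (5.9% each, against 1.3% and 1.13% of all genes), with a median of 0.006. Slc2a1, the ubiquitous carrier GLUT1, rose by 0.25 ± 0.05 and the fructose carrier Slc2a5 fell by 0.44 ± 0.08, both picked once their values were known. Slc2a1 lost the threshold with any 1 of the 6 arrays left out (limma adjusted p as high as 0.111) and Slc2a5 without A-ZIP 2 or 3 or FVB control 1 or 2 (limma adjusted p as high as 0.1). The urinary glucose carrier Slc5a2 was at -0.39 ± 0.11 (limma adjusted p = 0.104). Slc2a1 belongs with Hif3a and the pyruvate dehydrogenase kinase Pdk1 (0.40 ± 0.06, picked once its values were known) to the 3 of 25 hypoxia genes that rose. That was 12% of the list against 1.3% of all genes. Pdk1 lost the threshold without FVB control 1 (limma adjusted p = 0.0553), the list median was 0.05, and Vegfa was at -0.05 ± 0.05 (limma adjusted p = 0.751).

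Of 36 interstitial matrix and fibrosis genes 6 rose, 0 fell and 30 did not pass, a share of 16.7% higher against 1.3% of all genes, with 31 above 0 and a median of 0.24. Tnc, the repair-associated glycoprotein tenascin C, read 8.55, 8.93 and 8.75 in A-ZIP and 8.001, 8.23 and 8.04 in FVB (0.65 ± 0.11), and elastin, Eln, read 8.94, 9.05 and 8.95 against 8.44, 8.45 and 8.58 (0.49 ± 0.07). Fibril collagen genes Col1a2 (0.37 ± 0.08) and Col3a1 (0.35 ± 0.07) and the microfibril collagens Col6a2 (0.39 ± 0.09) and Col6a3 (0.30 ± 0.07) rose less. These 6 genes were picked once their values were known. Eln lost the threshold without FVB control 1 (limma adjusted p = 0.0553), Tnc without A-ZIP 2 or FVB control 1 (limma adjusted p as high as 0.077), and the 4 collagens in at least 4 of the 6 fits (limma adjusted p as high as 0.158). The list had 0 rises without FVB control 1, 1 without A-ZIP 2 and 10 without A-ZIP 1, while its median stayed between 0.18 and 0.31. Col1a1 was at 0.29 ± 0.09 (limma adjusted p = 0.115), fibronectin, Fn1, at 0.29 ± 0.10 (limma adjusted p = 0.174), and the fibrosis cytokine Tgfb1 at 0.01 ± 0.07 with overlapping groups (limma adjusted p = 0.953).

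The basement membrane and mesangium list, which covers the filter's scaffold, had 5 of 26 genes higher and 0 lower, a share of 19.2% higher against 1.3% of all genes, with 25 above 0 and a median of 0.21. With the arrays shifted to equal medians 3 of them rose. The collagen IV chain Col4a1 read 10.40, 10.42 and 10.41 in A-ZIP and 10.13, 10.09 and 10.12 in FVB, a rise of 0.30 ± 0.05 with almost no spread within either group (limma adjusted p = 0.0187). The laminin chain Lamc1 (0.27 ± 0.06), Col4a2 (0.26 ± 0.06), perlecan, Hspg2 (0.25 ± 0.06), and Frem1 (0.53 ± 0.11) rose as well, and these 4 were picked once their values were known. Col4a1 lost the threshold without A-ZIP 2 or FVB control 1 or 2 (limma adjusted p as high as 0.0749), and 0 of the 26 genes passed without any 1 of those arrays. The podocyte list had 2 of 19 higher, or 10.5% against 1.3% of all genes. They were the adhesion protein Kirrel (0.30 ± 0.05), which passed every fit, and the transcription factor Wt1 (0.28 ± 0.06). Wt1 passed only without A-ZIP 1 (limma adjusted p as high as 0.113). Nephrin, Nphs1, was at 0.09 ± 0.05 (limma adjusted p = 0.385). Among 20 smooth muscle genes Acta2, the smooth muscle actin (0.52 ± 0.11), Tagln (0.47 ± 0.10) and the coactivator Myocd (0.30 ± 0.07) rose, the last pair picked once their values were known. The share was 15% against 1.3% of all genes. Acta2 read 10.77, 11.33 and 10.90 against 10.54, 10.50 and 10.41. Without A-ZIP 3 or any 1 FVB array 0 of the 20 passed, including Acta2 (limma adjusted p as high as 0.111).

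Of 27 markers of tubular injury and repair 4 rose, 0 fell and 23 did not pass, a share of 14.8% higher against 1.3% of all genes, with 25 above 0 and a median of 0.24. They were Vim, an intermediate filament of mesenchymal and regenerating cells (0.37 ± 0.08), and the annexins Anxa1 (0.41), Anxa2 (0.30 ± 0.07) and Anxa3 (0.42 ± 0.08), all picked once their values were known. Anxa1 lay at the very edge of the threshold (limma adjusted p = 0.050 when rounded), and Anxa1, Anxa2 and Vim each passed in 1 of the 6 fits. Anxa3 lost the threshold without A-ZIP 2 or 3 or FVB control 1 or 2 (limma adjusted p as high as 0.12). Lcn2, the injury marker NGAL, read 8.09, 8.57 and 8.19 in A-ZIP and 7.56, 7.23 and 7.46 in FVB, clear of the controls but not past the threshold (0.87 ± 0.24, limma adjusted p = 0.0847). The classic injury gene Havcr1, for KIM-1, was at 0.06 ± 0.35 with overlapping groups (limma adjusted p = 0.962), and Krt19 at 0.52 ± 0.20 (limma adjusted p = 0.202). Without A-ZIP 2, FVB control 1 or FVB control 2 the list had 0 rises, and its median was 0.15 without A-ZIP 2 and 0.36 without A-ZIP 1.

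**Figure D4:**
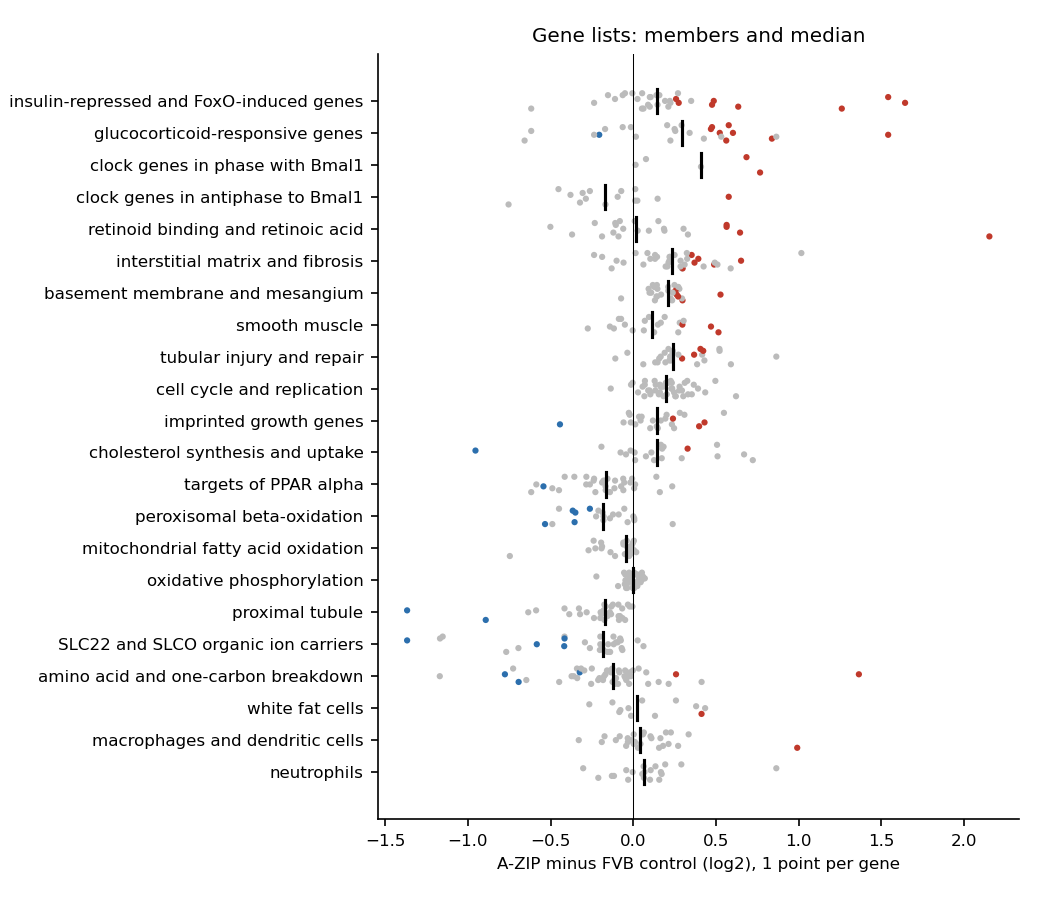
Each small point is a measured member of 1 of 22 gene lists, placed at its log2 difference A-ZIP minus FVB control, with genes past the threshold in red (higher) or blue (lower) and a tick at the list median. The glucocorticoid list (median 0.29), the matrix list (0.24) and the injury list (0.24) lie to the right of 0, and the peroxisomal (-0.18) and proximal tubule (-0.17) lists to the left.

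Imprinted growth genes, which set fetal and early growth, had 3 of 24 higher and 1 lower, or 12.5% and 4.2%. The shares of all genes were 1.3% and 1.13%. Of the 24 genes 19 were above 0, with a median of 0.15. Peg3 (0.43 ± 0.10), the non-coding RNA Meg3 (0.40 ± 0.08) and Grb10, an adaptor that restrains insulin and IGF receptors (0.24 ± 0.04), rose, and Phlda2 fell by 0.44 ± 0.10. Grb10 lost the threshold without A-ZIP 2 or FVB control 1 or 2 (limma adjusted p as high as 0.0906), and each of the others passed in 1 of the 6 fits (limma adjusted p as high as 0.193). The leptin receptor, Lepr, rose to 8.79, 8.70 and 8.59 from 8.21, 8.42 and 8.17 (0.43 ± 0.08) and lost the threshold without A-ZIP 2 or FVB control 1 or 3 (limma adjusted p as high as 0.0941). These 5 genes were picked once their values were known. Of 46 cell cycle and replication genes 0 passed, against 2.43% of all genes, and 43 were above 0, with a median of 0.20. That median was 0.063 without A-ZIP 2, 0.091 without FVB control 2 and 0.347 without A-ZIP 3.

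Lists of other cell types held few calls. The share higher was 8.3% for white and for brown fat markers and 3.7% for macrophage markers, against 1.3% of all genes. White fat markers had 1 of 12 higher, the amine oxidase Aoc3 (0.41 ± 0.09, picked once its values were known), which passed only without A-ZIP 1 (limma adjusted p as high as 0.145). The hormone genes of fat were low on all arrays and overlapped between groups: Adipoq read 4.47, 4.61 and 4.28 in A-ZIP and 4.47, 4.51 and 4.42 in FVB, and Lep 5.39, 5.14 and 5.41 against 5.35, 5.30 and 5.38. The mean of the white fat list was 7.84 to 7.92 on the A-ZIP arrays and 7.72 to 7.82 on the FVB arrays. Brown fat markers had 1 of 12 higher, Ppargc1a, while the uncoupling protein gene Ucp1 read 6.43, 7.39 and 5.44 against 6.06, 5.73 and 5.63 (limma adjusted p = 0.433). Macrophage and dendritic cell markers had 1 of 27 higher, Ms4a4a, with a list mean of 6.56 to 6.91 against 6.59 to 6.63. Neutrophil (0 of 20), T, NK and B cell (0 of 23), antigen presentation (0 of 15), skeletal muscle (0 of 16) and red blood cell (0 of 8) lists held no calls, and neither did the water channel (0 of 18), thick limb and distal sodium (0 of 27) and intercalated cell (0 of 19) lists. Over all genes 2.43% passed in either direction, so 0 calls in lists this short does not show that these cells were unchanged.

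The Pparg null kidney was then set beside the A-ZIP kidney, since PPARγ is needed to form fat. Against its own controls it differed in 1055 genes, or 5.29% of those compared (2.67% higher and 2.62% lower). The A-ZIP and Pparg null comparisons share no arrays but share the estimate of each gene's variance. Their calls are therefore not independent, since a gene with a low estimate passes more easily in both. Of the 485 A-ZIP genes 246 were called in the same direction there, 143 higher and 103 lower, which is 50.7% of the A-ZIP calls and 23.3% of the Pparg null calls. Opposite calls numbered 0. The sign was the same in 469 of the 485 genes (96.7%), against 65.5% of all genes. Of the 51 firm genes 42 were called in the same direction. The strain differs between the comparisons along with the genotype, and their effects cannot be told apart.

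Since the 485 genes were chosen by their size in A-ZIP, their values in both lines are given as a description. Crabp1 was at 2.15 in A-ZIP and 1.32 in Pparg null, Ddit4 at 1.54 and 1.45, Penk at 1.29 and 1.11, and Igfbp1 at 1.26 and 1.99. Apom was at -0.96 in A-ZIP and -0.23 in Pparg null, and Arntl at 0.77 and 1.62. The list of 32 PPARα targets had a median of -0.17 with 1 fall in A-ZIP (-0.219 to -0.097 with each array left out). In Pparg null it had a median of -0.41 with 19 falls. Falls were 1.13% of all genes in A-ZIP and 2.62% in Pparg null. The list of 46 cell cycle genes had a median of 0.20 with 0 rises in A-ZIP (0.063 to 0.347 with each array left out). In Pparg null it had a median of 0.43 with 12 rises. Rises were 1.3% of all genes in A-ZIP and 2.67% in Pparg null. A test of the difference between the effects was passed by 4 genes, or 0.0201% of those compared, and by 0 of the 485 A-ZIP genes, whose lowest limma adjusted p for it was 0.1186. It was also passed by 0 members of the PPARα target list and 0 of the cell cycle list. The median SE of that difference was 0.099, which limits how small a gap could be detected.

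**Figure D5:**
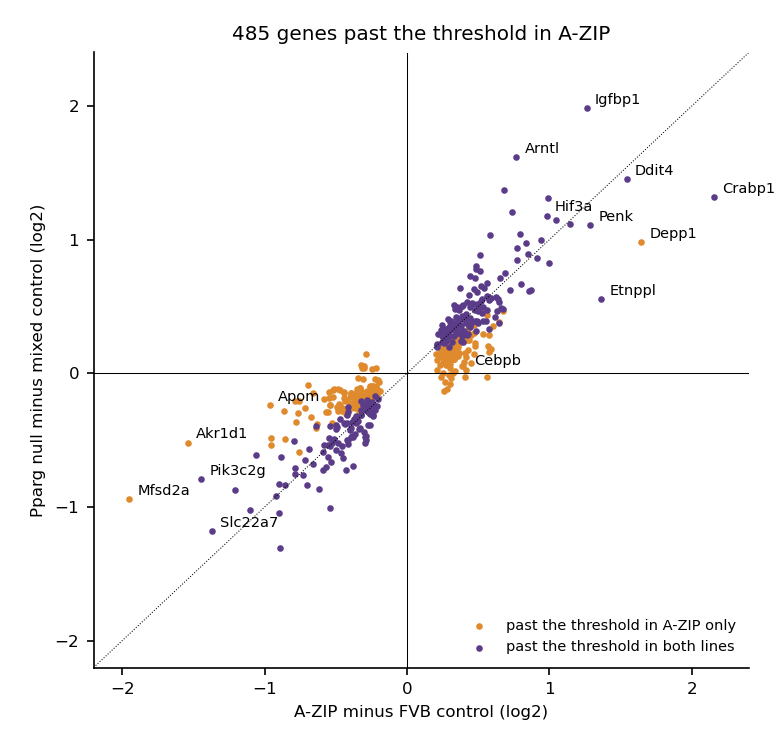
Each point is 1 of the 485 genes past the threshold in A-ZIP, with its log2 difference A-ZIP minus FVB control on the x axis and Pparg null minus mixed control on the y axis. Purple points are also past the threshold in Pparg null, orange points are not, and the dotted line marks equal values. Of the 485 points 469 have the same sign on both axes, with Crabp1 (2.15 and 1.32) and Ddit4 (1.54 and 1.45) far to the upper right.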

How the data were processed

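RNA from whole kidney was amplified and hybridised to Affymetrix arrays, per the labels' protocols. The deposited values are log2 expression; per the submitters' processing notes the authors made them with Affymetrix Expression Console by RMA. No source used here gives versions, settings or a genome build. Arrays keep no read depth, and their number limits the precision (median SE 0.07). Of 35556 probe sets 21789 had 1 gene symbol, 1621 several and 12146 none; the probe set with the highest mean was kept for each of 19938 genes. Differences were fitted with limma 3.58.1 in R 4.3.3 on all 12 arrays (8 residual degrees of freedom) with Benjamini-Hochberg adjustment over all genes. The fit was tested on simulated data. The members and gene lists were chosen with earlier results of these data known. Genes named first had to pass with each array left out, without overlap of the groups (predicted symbols excluded). The 15 largest rises and 15 largest falls of these were named. Also named were other large changes, the first 3 genes of each list, list members that passed every fit and genes past the test of the difference. Others are marked. Nothing in the labels says that pools came from separate litters, so p-values measure only the spread between these pools. Arrays of equal replicate number did not deviate together (correlations of -0.036, -0.103 and -0.01, against -0.108 to 0.154 for unequal numbers). They were not treated as pairs, and whether such pools shared a litter or batch was not tested.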

Additional observations from a re-analysis of the deposited data

Results flagged for a closer look

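The A-ZIP and Pparg null effects differed by limma's test of the difference in 4 genes, none of them past the threshold in A-ZIP. Krt5, a keratin of basal epithelium, was at 0.17 ± 0.14 in A-ZIP and 1.80 ± 0.14 in Pparg null, differing by -1.63 (limma adjusted p = 0.0215). Cfi, a protease that inactivates complement, was at 0.12 ± 0.14 and -1.48 ± 0.14, differing by 1.60 (limma adjusted p = 0.0215). Mean Cfi levels were 5.71 in A-ZIP, 5.59 in FVB control, 7.94 in Pparg null and 9.42 in mixed control. At so low an FVB level a fall could hardly be seen, and strain and line cannot be told apart here. Ptgds, a prostaglandin D synthase, was at 0.31 ± 0.09 and -0.74 ± 0.09, differing by 1.05 (limma adjusted p = 0.0215). Actg2, an actin of visceral smooth muscle, was at -0.12 ± 0.08 and 0.91 ± 0.08, differing by -1.03 (limma adjusted p = 0.0206). The number of such genes was 0 without A-ZIP 1, A-ZIP 2 or FVB control 2, 2 without A-ZIP 3, 1 without mixed control 1 and 9 without Pparg null 2.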

How the results depend on the processing

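The 485 genes past the threshold became 836 without genes under the 50th percentile of mean level, 785 with a variance trend, 1035 at an adjusted p under 0.10, 313 with the replicate number as a block, 176 with all probe sets tested, 162 when only the 6 arrays compared were fitted, and 81 with at least 1.5-fold. Leaving out each array in turn gave 62 to 569 genes. The genes that differed between the A-ZIP and Pparg null effects, 4 in number, became 1 without genes under the 50th percentile, 0 with all probe sets, 2 with the replicate block and 7 at an adjusted p under 0.10, and 0 to 9 with each array left out. The cause of these shifts was not tested. Of the 56 genes past the threshold that the naming rule chose, without those picked once their values were known, 56 stayed past it after a further quantile normalization, 54 with equal array medians and 41 with only the 6 arrays fitted, and 0 reversed under those settings.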
